A study of Mus musculus with 6 samples.

Results

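The genes described here are 10 transcripts that are made by the endocrine cells of the pancreas: the hormones Ins1, Ins2, Gcg, Sst, Ppy and Pyy, the beta cell peptide Iapp, and the granule proteins Chga, Chgb and Scg2. They were chosen by name, and all 10 were among the 10245 genes with a value in the deposited table. RNA-seq had been done on whole pancreas from 3 control mice, with the genotype Ptf1a(CreER/+), and 3 Ptf1a cKO mice, with the genotype Ptf1a(CreER/fl), 14 days after the first of 3 doses of tamoxifen at 0.25 mg/g body weight. Both groups thus carried 1 Ptf1a allele replaced by tamoxifen-inducible Cre, received tamoxifen and, per the study's description, held a Cre-dependent EYFP reporter, and they differed in whether the other Ptf1a allele was floxed. Ptf1a is an acinar transcription factor in the adult pancreas, so Cre from its locus acts in acinar cells, while the genes described here are made by other cells of the same tissue. The control mice were 4 months old and the Ptf1a cKO mice 5 months old, and age and genotype cannot be told apart. Control replicate 1 and Ptf1a cKO replicate 2 were male and the other 4 mice female.

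Islets are small clusters of endocrine cells scattered through the exocrine pancreas. Beta cells store insulin, which in the mouse is made from a pair of genes, Ins1 and Ins2, and release it together with amylin, the product of Iapp. Alpha cells make glucagon from Gcg, delta cells make somatostatin from Sst, and the PP cells make pancreatic polypeptide from Ppy, while peptide YY from Pyy is found in several islet and gut endocrine cell types. All of these cells pack their peptides into dense-core granules, whose soluble matrix holds the chromogranins A and B and secretogranin II, the products of Chga, Chgb and Scg2.

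Ins1 lies on chr19:52264297-52265476 on the plus strand and Ins2 on chr7:142678656-142743381 on the minus strand of GRCm38, the latter interval including long annotated transcripts. The reads were 50 bases long and the transcripts of Ins1 and Ins2 had 7 stretches of 50 bases in common, 0.69% of those of Ins1 and 0.47% of those of Ins2, so few error-free reads could belong to either gene. Ppy (chr11:102099930-102101319) and Pyy (chr11:102106676-102107832) are neighbours on the minus strand, with starts 6.75 kb apart. Iapp (chr6:142298423-142303961) overlaps the opposite-strand gene Slco1a5, and whether reads were counted by strand is not given in the sources used here.

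The upstream sequences of Ins1 and Iapp are shown because the products of both genes are stored in the same beta cell granules and the ratio of the transcripts was among the steadiest of all pairs in these libraries. They run 5′ to 3′ and end just before the annotated start, and come from RefSeq promoters on GRCm38.p6. Capitals mark the letters TAAT or ATTA, the core bound by homeodomain factors, and CANNTG, the E-box core bound by basic helix-loop-helix factors.
Ins1 (chr19:52264047-52264296, plus strand): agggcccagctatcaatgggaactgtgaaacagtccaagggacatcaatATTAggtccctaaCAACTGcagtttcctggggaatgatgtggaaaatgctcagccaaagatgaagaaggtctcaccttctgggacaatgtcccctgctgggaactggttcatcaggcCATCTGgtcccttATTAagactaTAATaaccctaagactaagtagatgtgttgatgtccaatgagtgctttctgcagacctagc
Iapp (chr6:142298175-142298422, plus strand): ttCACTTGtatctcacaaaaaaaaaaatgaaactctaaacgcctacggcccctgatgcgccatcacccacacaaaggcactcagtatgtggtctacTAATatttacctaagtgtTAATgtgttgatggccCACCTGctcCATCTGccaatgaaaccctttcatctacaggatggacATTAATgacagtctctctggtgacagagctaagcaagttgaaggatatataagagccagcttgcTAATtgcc

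The Ins1 stretch held 3 matches to TAAT or ATTA and 2 to CANNTG, and the Iapp stretch 5 and 3, with overlapping matches counted. Both sets of letters are common: on either strand, 54.92% of 32851 mouse promoters of 250 bases held TAAT and 66.22% held CANNTG. Of the 9 genes with an entry, 5 held TAAT and 8 held CANNTG. A rarer motif was TGACGTCA, the cyclic AMP response element, which reads the same on both strands and occurred in 1.546% of all promoters. It occurred in 3 of the 9 genes, namely Sst, in which this element is a textbook example, and the granule genes Chgb and Scg2. The match is shown in capitals, with 11 bases on either side.
Sst (chr16:23890874-23890903, minus strand): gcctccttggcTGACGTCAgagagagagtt
Chgb (chr2:132781559-132781588, plus strand): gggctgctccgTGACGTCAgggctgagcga
Scg2 (chr1:79440076-79440105, minus strand): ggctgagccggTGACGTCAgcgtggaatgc
The match began 48 bases before the RefSeq start of Sst, 72 before that of Chgb and 68 before that of Scg2. The GENCODE models used for the other positions start farther upstream, and in them all 3 matches lie inside the gene. A match describes the letters only.

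The table holds normalized read counts, which the authors had scaled so that the median gene lay between 125.0 and 128.5 in every library. Ptf1a, the targeted gene, had 566, 601 and 652 normalized counts in the control libraries and 19.8, 70.1 and 10.2 in the Ptf1a cKO libraries, which was lower by a log2 value of -4.41 ± 0.49 (SE, adjusted p = 0.00033). Ptf1a cKO replicate 2 kept the most Ptf1a of its group, and also the largest share of counts in 32 acinar enzyme genes, 63.5% against 48.7% and 38.0%, where the control libraries had 78.7 to 81.8%. Each level below is in normalized counts unless it is said to be per kb of exon. In whole-tissue RNA, fewer cells of a type and less RNA per cell cannot be told apart.

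Insulin transcripts were the most abundant of the 10, also per kb of exon. Ins2 was at 5871, 5179 and 24002 normalized counts in the control libraries and at 12421, 2900 and 14113 in the Ptf1a cKO libraries. Ins1 was at 2932, 2427 and 9847 in control and at 6508, 1520 and 7901 in Ptf1a cKO pancreas. For both genes control replicate 3 was the highest library of all and Ptf1a cKO replicate 2 the lowest, and the groups overlapped. Iapp had the same order at the extremes, with 1071, 971 and 3210 in control and 2134, 499 and 2368 in Ptf1a cKO pancreas.

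The hormones of the other islet cells were also lowest in Ptf1a cKO replicate 2, but their highest library was Ptf1a cKO replicate 3. Gcg was at 1287, 1871 and 3113 normalized counts in the control and at 3942, 521 and 5796 in the Ptf1a cKO libraries. Sst was at 174, 230 and 452 in control and at 441, 70.9 and 668 in Ptf1a cKO pancreas. Between these extremes, control replicate 3 and Ptf1a cKO replicate 1 were close for Sst. Ppy was the least even, with 26.7, 24.6 and 37.2 in control and 42.7, 4.34 and 157 in Ptf1a cKO pancreas. Pyy was at 37.3, 46.5 and 59.1 in control and at 79.9, 11.7 and 176 in Ptf1a cKO pancreas. The control libraries differed by at most 1.51-fold for Ppy and 1.58-fold for Pyy, while the Ptf1a cKO libraries differed by 36.2-fold and 15.1-fold.

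The granule genes are shared by the endocrine cell types. Chga had 653, 667 and 1978 normalized counts in the control and 1692, 301 and 2244 in the Ptf1a cKO libraries. Chgb had 80.4, 66.0 and 218 in control and 153, 29.1 and 167 in Ptf1a cKO pancreas. Scg2 had 293, 313 and 1090 in control and 741, 166 and 725 in Ptf1a cKO pancreas. Chgb and Scg2 were highest in control replicate 3, as the beta cell genes were, and Chga was highest in Ptf1a cKO replicate 3.

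**Figure D1:**
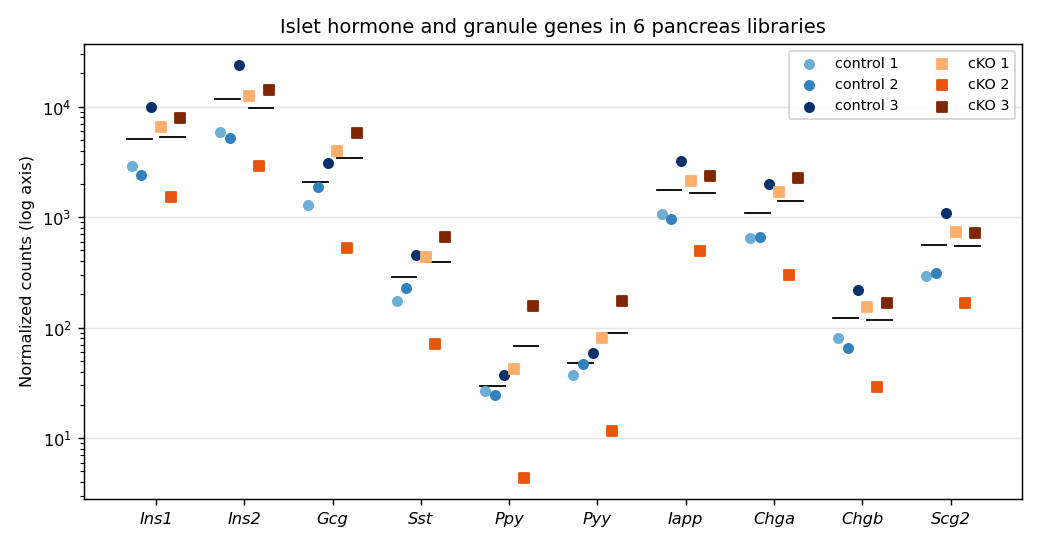
Normalized counts of each gene (log axis) in the 3 control libraries (circles) and the 3 Ptf1a cKO libraries (squares), with a line at each group's mean. Ptf1a cKO replicate 2 is the lowest point for all 10 genes, and the other Ptf1a cKO libraries lie among or above the control libraries.

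Divided by exon length, the control means ran in the order Ins2 (8905 normalized counts per kb), Ins1 (4773), Iapp (1797), Gcg (1399), Chga (399), Sst (396), Scg2 (225), Pyy (75.5), Ppy (59.0) and Chgb (44.4). Ins2 exceeded Ins1 per kb in 6 of 6 libraries, and so did Ins1 over Iapp, Gcg over Chga, Sst over Scg2 and Scg2 over Pyy. Iapp and Gcg changed places, with Iapp higher in 3 of 6 libraries, and Chga and Sst did so too, with Chga higher in 3. The order of Pyy and Ppy held in 5 libraries and that of Ppy and Chgb in 4. Among the control libraries, only the ranges of Gcg and Chga and of Scg2 and Pyy did not overlap with those of the next gene in the order.

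The comparison of genotypes asked whether the islet transcripts changed when Ptf1a was removed from acinar cells. None of the 10 genes passed the test (limma on log2 values, Benjamini-Hochberg adjusted p under 0.05 over all genes), where 33.9% of all genes did, and none had an unadjusted p under 0.05, where 45.3% of all genes did. Log2 fold changes, Ptf1a cKO minus control, ran from -0.19 for Chgb to 0.28 for Pyy, with adjusted p between 0.79 and 0.96, and 6 of the 10 were above 0. The median over the 10 genes was 0.06, and that over all genes was 0.04. The groups did not separate for any of the 10 genes, where 50.8% of all genes had groups without overlap.

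The intervals were wide. For Ins2 the log2 fold change was -0.17 ± 0.69 (SE, n = 3 per group, adjusted p = 0.87), with a 95% interval from -1.73 to 1.38. For Gcg it was 0.22 ± 0.76 (adjusted p = 0.84), from -1.49 to 1.94. For Ppy it was 0.25 ± 0.87 (adjusted p = 0.85), from -1.72 to 2.22, so that levels from 0.30 to 4.64 times those of control lay within the interval. The upper limits over the 10 genes ran from 2.34 times control for Chgb to 4.64 times for Ppy, and the lower limits from 0.30 to 0.39 times. These limits depend on how limma estimates the variance. With robust estimation the SEs were larger, from 0.85 (Iapp) to 1.15 (Ppy), against 0.61 (Iapp) to 0.87 (Ppy) here.

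The result rested on Ptf1a cKO replicate 2, the lowest library for all 10 genes and the only male of its group. The adjusted p below do not account for that choice of library, and the groups then differ in sex. Without this library, the log2 fold changes of all 10 genes were above 0, from 0.56 (Ins2) to 1.41 (Ppy). Of the 10 genes, 4 were called higher, where 35.1% of all genes passed the test and 18.1% were called higher, and these were the hormones of the alpha, delta and PP cells and Pyy. On the log2 scale Gcg rose by 1.29 ± 0.32 (adjusted p = 0.012), Pyy by 1.28 ± 0.31 (adjusted p = 0.011), Ppy by 1.41 ± 0.44 (adjusted p = 0.034) and Sst by 1.04 ± 0.34 (adjusted p = 0.040). The groups still overlapped for Sst, with Ptf1a cKO replicate 1 at 441 and control replicate 3 at 452 normalized counts. Ins1, Ins2, Iapp, Chgb and Scg2 had adjusted p between 0.22 and 0.45, and Chga 0.076. Leaving out Ptf1a cKO replicate 3 instead placed all 10 genes below control, by log2 fold changes between -0.78 and -0.39, and none was called. Leaving out control replicate 3 placed all 10 above control, by 0.32 to 0.68, and again none was called.

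**Figure D2:**
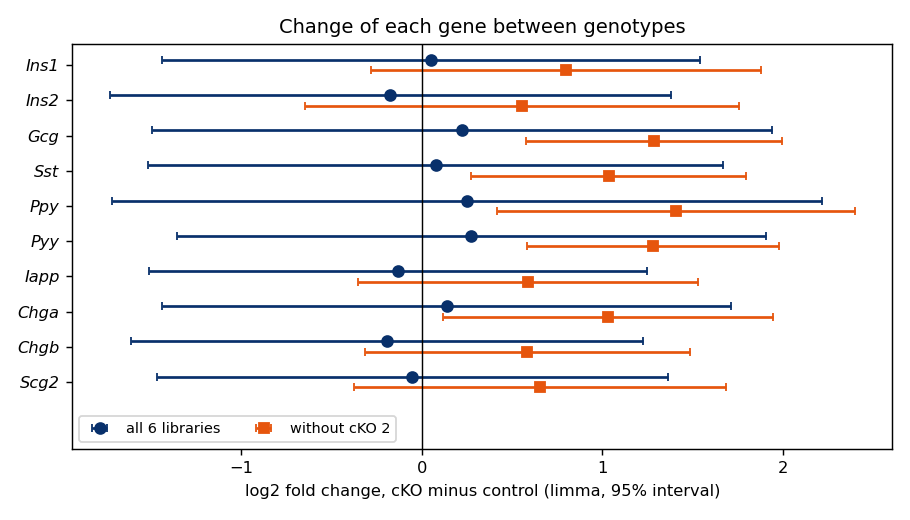
Log2 fold change of each gene, Ptf1a cKO minus control, with its 95% interval from limma, over all 6 libraries (circles) and without Ptf1a cKO replicate 2 (squares). All intervals over 6 libraries include 0, and those of Gcg, Sst, Ppy, Pyy and Chga lie above 0 once that library is left out.

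The scaling of the libraries decided how these levels read. As a share of all counts assigned to genes, the 10 genes together took 0.059%, 0.056% and 0.245% in the control and 0.393%, 0.067% and 0.621% in the Ptf1a cKO libraries. When every library was set to the same total, all 10 were called higher, with log2 fold changes of 1.25 to 1.72, but 94.9% of all genes were called, with 93.6% of all genes called higher, and the median gene was up by 1.49. Against that median the 10 genes lay between 0.23 below and 0.23 above. As a share of the counts outside the 32 acinar enzyme genes, they took 0.322%, 0.303% and 1.15% in control and 0.766%, 0.184% and 1.00% in Ptf1a cKO pancreas, with overlapping groups.

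Variation between mice of a group was large and ran in the same direction for all 10 genes. Ptf1a cKO replicate 2 was the lowest library of its group for 10 of 10 genes, where 34.3% of all genes were lowest there, and the lowest of all 6 for 10 of 10, against 9.65% of all genes. Control replicate 3 was the highest control for 10 of 10, against 38.1% of all genes. The within-group SD of the log2 level was 1.11 (Iapp) to 1.57 (Ppy, or 1.87 without the pseudocount), and the median over all genes was 0.19. Only 125 genes (1.22%) had an SD above 1, and these included all 10.

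**Figure D3:**
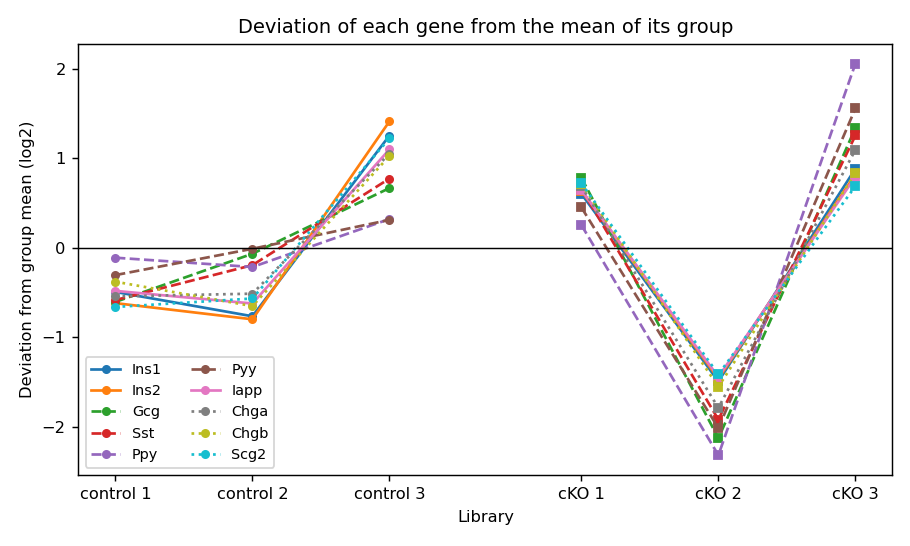
Deviation of each gene's log2 level from the mean of its group in each library, with lines joining the values of 1 gene within a group (replicates have no order). Control replicate 3 lies above 0 and Ptf1a cKO replicate 2 below -1 for all 10 genes, and the steps are of different size for the beta cell genes (solid), the other hormones (dashed) and the granule genes (dotted).

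The size of these steps differed among the genes. Control replicate 3 exceeded the mean of the other 2 control libraries 4.34-fold for Ins2, 3.68-fold for Ins1 and 3.14-fold for Iapp, but 1.97-fold for Gcg, 1.45-fold for Ppy and 1.41-fold for Pyy. The granule genes lay with the beta cell genes, at 3.60-fold for Scg2, 3.00-fold for Chga and 2.99-fold for Chgb. In the Ptf1a cKO group the hormones of the other cells had the larger steps. The mean of replicates 1 and 3 was 23.0 times the value of replicate 2 for Ppy and 10.95 times for Pyy. It was 9.34 times for Gcg and 7.81 times for Sst. For Scg2, Iapp, Ins2 and Ins1 it was 4.42 to 4.74 times. Chgb (5.49 times) and Chga (6.53 times) lay between these and Sst. These are single mice, so the contrast was not tested.

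The male mice were control replicate 1 and Ptf1a cKO replicate 2, the lowest library. Control replicate 1 was the lowest control for 5 of the 10 genes and control replicate 2 for the other 5. With sex as a covariate 0 of the 10 genes were called. Their SEs were then smaller, from 0.41 (Sst) to 0.69 (Ppy), against 0.61 (Iapp) to 0.87 (Ppy) without it. Gcg had 0.43 against 0.76. A block by replicate number, which was not taken to pair the mice, also gave smaller SEs, from 0.31 (Ins1) to 0.61 (Ppy). The acinar share was lowest in the highest control library (78.7% against 81.5% and 81.8%) and highest in the lowest Ptf1a cKO library. The part of sex, age or acinar content in the levels of the 10 genes was not tested.

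Ratios within a library do not depend on how libraries are scaled. Over the 45 pairs of the 10 genes, the within-group SD of the log2 ratio had a median of 0.48, where that of the 10 log2 levels was 1.27. In 43 of the 45 pairs the ratio spread less than both of its genes. The exceptions were Ppy against Scg2, with an SD of 1.22, the largest of all pairs, and Ppy against Iapp, with 1.14, each above the SD of the partner's own level.

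**Figure D4:**
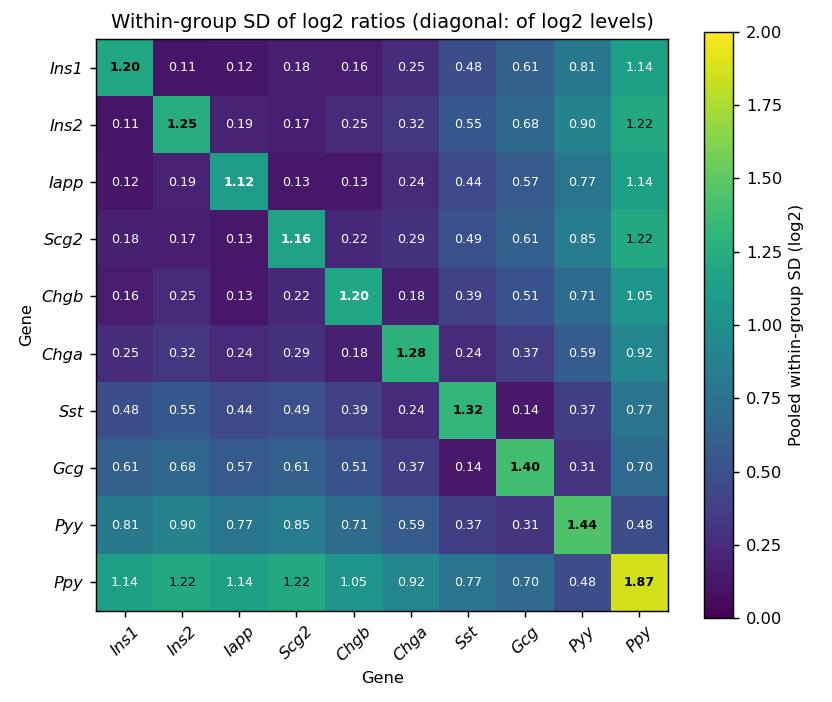
Pooled within-group SD of the log2 ratio of each pair of genes, with the SD of each gene's own log2 level on the diagonal (bold). The block of beta cell and granule genes has values of 0.11 to 0.32, and the column of Ppy has the largest values, up to 1.22.

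Among the beta cell genes the ratios were nearly constant while the levels moved several-fold. Ins1 to Ins2 was 0.499, 0.469 and 0.410 in the control and 0.524, 0.524 and 0.560 in the Ptf1a cKO libraries, with an SD of 0.11. Ins1 to Iapp lay between 2.5 and 3.34 in all 6 libraries, with an SD of 0.12. The levels of Ins1 and Ins2 differed by up to 6.48-fold and 8.28-fold between the same libraries, and their ratio by 1.36-fold.

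Of the granule genes, Chgb and Scg2 followed the beta cell genes more closely than they did the other hormones. Iapp to Chgb was between 13.3 and 17.1 in all 6 libraries and Iapp to Scg2 between 2.88 and 3.66, with SDs of 0.13. Over the 9 pairs of a beta cell gene with a granule gene the median SD was 0.18, below the 0.22 of the 3 granule pairs. Chga was the granule gene closest to the other hormones, with an SD of 0.24 for Sst to Chga. Sst to Chgb had 0.39 and Sst to Scg2 0.49. Chga was about as close to Iapp (SD 0.24) and Ins1 (0.25) as to Sst, and less close to Ins2 (0.32).

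Gcg and Sst, which are made by different cells, also kept a steady ratio. Gcg to Sst was 7.38, 8.14 and 6.88 in the control and 8.94, 7.35 and 8.68 in the Ptf1a cKO libraries, with an SD of 0.14, while the level of Gcg differed by up to 11.1-fold and that of Sst by up to 9.41-fold between libraries. Ins2 to Gcg moved more, at 4.56, 2.77 and 7.71 in control and 3.15, 5.56 and 2.44 in Ptf1a cKO pancreas, with an SD of 0.68. The highest ratio was in the control with the most insulin transcript and, in the Ptf1a cKO group, in the library with the least. The 12 pairs of a beta cell gene with another hormone had a median SD of 0.73, against 0.43 for the 6 pairs among Gcg, Sst, Ppy and Pyy.

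Ppy was closer to Pyy than to any other of the 10 genes, and Pyy was closest to Gcg, with an SD of 0.31. Ppy to Pyy was 0.715, 0.529 and 0.630 in control and 0.534, 0.372 and 0.895 in Ptf1a cKO pancreas, with an SD of 0.48. Ins2 to Ppy was 220, 211 and 645 in control and 291, 667 and 89.6 in Ptf1a cKO pancreas, a 7.45-fold range. The value of Ppy in Ptf1a cKO replicate 2, at 4.34, was among the lowest printed here, and its ratios there carry the most counting error, which the table does not allow to be computed.

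Between genotypes, 2 of the 45 ratios did not overlap, Ins1 to Ins2 and Chga to Chgb, where 2.76% of the ratios of any of the 10 genes to any other gene did not. Ins1 to Ins2 was higher in Ptf1a cKO pancreas by 0.23 on the log2 scale. Chga to Chgb was 8.12, 10.1 and 9.05 in control and 11.1, 10.3 and 13.4 in Ptf1a cKO pancreas, higher by 0.35. Both had p = 0.10 in a two-sided exact permutation test, the smallest that 3 against 3 mice can give, and an adjusted p of 1 over the 45 pairs. The count of pairs without overlap depended on single libraries: it was 5 without control replicate 2 (background 3.7%), 6 without control replicate 3 (4.83%) and 6 without Ptf1a cKO replicate 2 (35.9%), and 1 with 10 normalized counts added to both genes.

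The makeup of the hormone transcripts varied among mice without separating the genotypes. Of the summed counts of the 6 hormone genes, Ins1 and Ins2 took 85.2%, 77.8% and 90.2% in the control and 80.8%, 87.9% and 76.4% in the Ptf1a cKO libraries. Gcg took 12.5%, 19.1% and 8.30% in control and 16.8%, 10.4% and 20.1% in Ptf1a cKO pancreas. Sst took between 1.21% and 2.35%, and Ppy with Pyy between 0.257% and 1.16%. The share of Gcg was 13.3% ± 5.5 (SD, n = 3) in control and 15.8% ± 5.0 (n = 3) in Ptf1a cKO mice (exact permutation p = 0.70). The low total of Ptf1a cKO replicate 2 came with an insulin share in the upper part of the range, and the high total of control replicate 3 with the highest.

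The other genes of the endocrine program divided into those that followed the 10 genes and those that did not. Likeness was taken as Pearson's r with the mean log2 level of the 10 genes over the 6 libraries after removal of the group means. It is a description over few points from the same libraries, and 1.53% of all genes had r above 0.95. Of 31 further endocrine genes analysed here, 13 had r above 0.95 and 7 passed the test between genotypes (33.9% of all genes did). Of the 10 genes themselves, which enter the mean, 8 had r above 0.95 and all had r above 0.91.

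Prohormone processing and granule traffic was represented by 14 genes, of which 9 had r above 0.95. Pcsk2, the convertase that cuts proglucagon and proinsulin, was at 193, 216 and 401 normalized counts in the control and 404, 76.3 and 517 in the Ptf1a cKO libraries (r = 0.99). Cpe, the carboxypeptidase that trims the cut ends, had r = 0.99, as did Scg3, a granule sorting protein, Ptprn, a granule membrane protein, and Slc30a8, the zinc transporter of insulin granules. In these 5 genes the groups overlapped, and their adjusted p lay between 0.89 and 0.99.

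Of the same list, 3 genes passed the test. Pam, which amidates peptides, was higher at 768, 515 and 1386 against 259, 277 and 367 in control, with a log2 fold change of 1.45 ± 0.31 (adjusted p = 0.0070). Syt7, a calcium sensor of exocytosis, was higher with 152, 115 and 207 against 54.6, 66.2 and 68.4 (1.25 ± 0.21, adjusted p = 0.0021). Ptprn2, the paralog of Ptprn, was lower with 570, 562 and 706 against 1292, 1131 and 1382 (-1.05 ± 0.13, adjusted p = 0.00063). The r of Ptprn2 was 0.69, and its within-group SD of 0.17 was below the median gene's.

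Among islet transcription factors 7 of 22 were analysed, and none had r above 0.95. Pax6, a factor of all islet cells, followed the 10 genes with 23.1, 19.9 and 27.1 in control and 37.1, 7.67 and 45.1 in Ptf1a cKO pancreas (r = 0.94). Pdx1 (r = 0.85), Rfx3 (r = 0.64) and Foxa2 (r = 0.01) had within-group SDs of 0.22 to 0.33, and their adjusted p were 0.67, 0.94 and 0.082.

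Of the list of glucose sensing and islet receptors 10 of 15 genes were analysed, of which 4 had r above 0.95. G6pc2, an islet glucose-6-phosphatase, was at 156, 128 and 465 in control and 277, 64.8 and 436 in Ptf1a cKO pancreas (r = 0.99), and the beta cell peptide Ucn3, the channel subunit Abcc8 and the glucose transporter Slc2a2 had r between 0.96 and 0.98. Ero1lb, an oxidase of the endoplasmic reticulum that is abundant in acinar as well as beta cells, was lower at 1970, 2241 and 1548 against 4906, 4490 and 4188 (-1.25 ± 0.16, adjusted p = 0.00063), with r = -0.86. Ptf1a cKO replicate 2 was the highest of its group for Ero1lb, the reverse of the insulin genes, and the acinar enzyme genes had a median r of -0.84 with 23 of 32 called lower (16.8% of all genes were) and 1 higher. Tmem27, or collectrin, was higher at 153, 109 and 165 against 28.0, 25.9 and 57.6 (1.90 ± 0.28, adjusted p = 0.0013). Glp1r, the GLP-1 receptor, had 199, 146 and 154 in control and 115, 178 and 175 in Ptf1a cKO pancreas (adjusted p = 0.70).

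**Figure D5:**
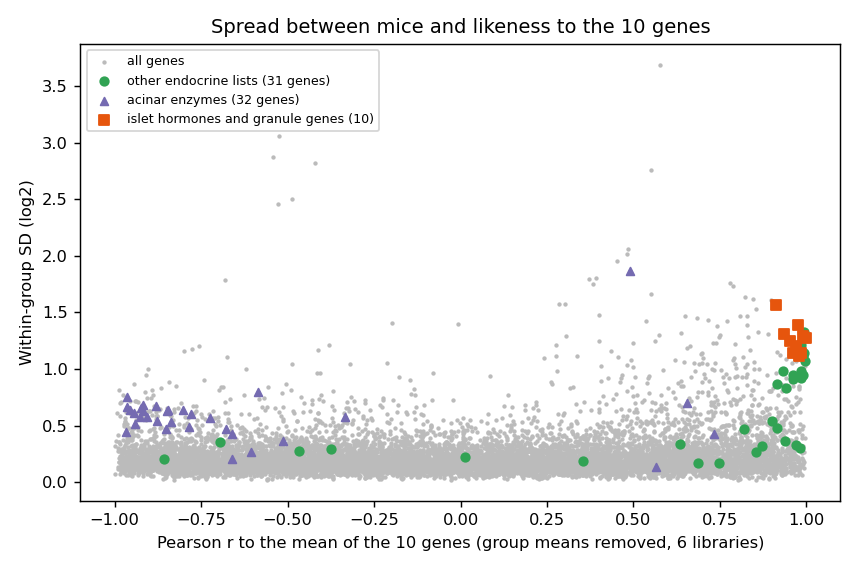
Within-group SD of the log2 level of every gene against its Pearson r with the mean of the 10 genes over 6 libraries, group means removed. All 10 genes (squares) lie at r above 0.91 and SDs above 1, 13 of the 31 other endocrine genes (circles) lie at r above 0.95, and most acinar enzyme genes (triangles) lie at negative r.

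Without Ptf1a cKO replicate 2, the only male of its group, 16 of the 31 endocrine genes were called. They included Pcsk2 (log2 fold change 0.83 ± 0.27, adjusted p = 0.041), Scg3 (0.99 ± 0.31, adjusted p = 0.035), Abcc8 (0.96 ± 0.22, adjusted p = 0.0085), Slc2a2 (1.16 ± 0.28, adjusted p = 0.010) and Ucn3 (1.15 ± 0.30, adjusted p = 0.016), all higher.

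Of the genes of the islet that are also made elsewhere, Ttr, Gal and Ddc passed the test between genotypes. Ttr, transthyretin, a plasma protein of alpha cells and liver, was at 1109, 1937 and 1392 in the control and 92771, 13129 and 86790 in the Ptf1a cKO libraries (log2 fold change 5.03 ± 0.65, adjusted p = 0.00063), and Rbp4, its partner in plasma, had an adjusted p of 0.23. The neuropeptide gene Gal, galanin, fell by 3.27 on the log2 scale (92.6, 84.7 and 64.7 against 641, 1090 and 737 in control) and Ddc, the decarboxylase of amine synthesis, by 0.61. Within the Ptf1a cKO group, Ttr (r = 0.84), Rbp4 (r = 0.86) and Ddc (r = 0.86) were lowest in replicate 2, as the 10 genes were. Gal (r = -0.30) was lowest in replicate 3. No gene of the list for neurons and glia was analysed here.

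Between genotypes, most fibroblast, ductal and leukocyte markers moved differently from the 10 genes. Of 8 endothelial genes none was called, with summed levels of 1239 to 1615 in control and 1211 to 1421 in Ptf1a cKO pancreas. Of 8 fibroblast genes 7 were higher, where 17.1% of all genes were called higher, Col1a1 among them at 584, 1419 and 1033 against 229, 216 and 284. Their summed level was 2807 to 3118 in control and 5388 to 9915 in Ptf1a cKO pancreas, highest in Ptf1a cKO replicate 2, the library with the lowest hormones, and the part of fibroblasts in the levels of the 10 genes was not tested. Of 10 ductal genes 6 were higher. Their summed level in the Ptf1a cKO libraries was 94848, 28562 and 112294, lowest in replicate 2 as for the 10 genes. Most of it was Spp1 (87512, 20971 and 105340). Of 6 leukocyte markers analysed 5 were higher, with summed levels of 419 to 696 in control and 1110 to 2269 in Ptf1a cKO pancreas. Within the groups, the leukocyte sum was highest in control replicate 3 and in Ptf1a cKO replicate 3. Among the Ptf1a cKO libraries it was lowest in replicate 2, as the 10 genes were. The median r with the 10 genes was 0.52 for leukocyte, 0.30 for endothelial, -0.39 for ductal and -0.56 for fibroblast genes. Acta2 had r = 0.84 and Lyz2 r = 0.82, and no gene of these lists had r above 0.95.

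The genes outside the 10 with the highest likeness were Disp2, Nt5e, Tmem215, Syt13, Ptprn, Chic1, L3mbtl3, Arid3b, Slc30a8 and Ank2, with r of 0.994 to 0.999 over 6 libraries. Disp2 was at 37.4, 34.2 and 93.9 normalized counts in the control and 82.9, 16.0 and 121 in the Ptf1a cKO libraries, with Ptf1a cKO replicate 2 lowest and Ptf1a cKO replicate 3 highest as for Chga. Syt13, a synaptotagmin, was at 53.9, 69.0 and 157 in control and 133, 25.6 and 192 in Ptf1a cKO pancreas. Nt5e, the ectonucleotidase CD73, shared the pattern within each group and was higher in Ptf1a cKO pancreas (63.8, 11.1 and 82.5 against 3.58, 3.60 and 11.6 in control, log2 fold change 2.28 ± 0.68, adjusted p = 0.029), with overlapping groups. L3mbtl3, Arid3b and Ank2 were also highest in control replicate 3 and Ptf1a cKO replicate 3 of their groups and lowest in Ptf1a cKO replicate 2 of its group, with smaller steps and SDs of 0.13 to 0.39. An SD above 1 together with r above 0.95 was met by 28 genes, 8 of them among the 10.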

How the data were processed

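RNA-seq of whole pancreas from 3 control and 3 Ptf1a cKO mice was analysed from a single table. The authors had deposited normalized read counts, a signal that is never negative and carries decimals. Reads per gene could not be recovered from it, and count models were not used. The study reports the uniquely aligned reads of each library, which were not used here. The submitters' processing notes name TopHat2 2.0.4, Bowtie 0.12.7.0, SAMtools 0.1.18.0, HTSeq 0.6.0 and mm9. Rows that name no gene took 75.7 to 82.6% of a library and were left out. Precision rests on 3 mice per group.

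Values were divided by 13.6 and 0.25 was added before log2. Fold changes are on that scale, and those of low genes depend on the added value in either direction. With 0.05, 0.25 and 1 added, the log2 fold change of Ppy was 0.13, 0.25 and 0.38. That of Chgb was -0.21, -0.19 and -0.14. The groups were compared by limma 3.58.1 (R 4.3.3) with a mean-variance trend, two-sided, with Benjamini-Hochberg adjustment over 10245 genes, without covariates. The fit was tested on simulated data. Within-group SDs pool both groups. Ratios had no pseudocount, and their tests were exact permutation tests. Positions and sequences come from GRCm38, since no mm9 genome was used here. Alternatives covered the pseudocount, a filter on low values, scaling, the model and each library left out.

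The 10 genes and all lists were chosen with earlier results of these data known. Named from other lists were called genes and the 3 with the highest mean in each endocrine list, with further genes as examples chosen after their values were seen, and the 10 genes most alike in profile. Some genes of these lists are not reported here.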

Additional observations from a re-analysis of the deposited data

How the results depend on the processing

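Of the 10 islet genes none was called under other pseudocounts, a minimum mean of 100 normalized counts (which left 8 of them), the 75th percentile, the median of ratios, totals without digestive enzymes, robust estimation or no trend in limma, sex as a covariate, or an adjusted p under 0.01. With every library at the same total, 10 were called, with 28 of the 31 other endocrine genes and 9719 of all genes. There Ins2 (1.32), Iapp (1.36), Chgb (1.25) and Scg2 (1.43) changed sign, since the whole table moved up. Without digestive enzymes in the total, Iapp (0.023) and Scg2 (0.10) changed sign without being called. At an adjusted p under 0.01, 1794 of all genes were called, against 3475.

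Leaving out each library in turn gave 0 to 4 called islet genes, 7 to 16 other endocrine genes and 2363 to 3601 of all genes, with the highest of each without Ptf1a cKO replicate 2. Over these, log2 fold changes ran from -0.39 to 0.80 for Ins1, -0.58 to 0.56 for Ins2, -0.45 to 1.29 for Gcg, -0.55 to 1.04 for Sst, -0.78 to 1.41 for Ppy, -0.50 to 1.28 for Pyy, -0.53 to 0.59 for Iapp, -0.41 to 1.03 for Chga, -0.61 to 0.58 for Chgb and -0.41 to 0.65 for Scg2. The pairs of genes with ratios that did not overlap numbered 2 to 6, and the median SD of the ratios was 0.385 to 0.547. With 10 normalized counts added to both genes, 1 pair did not overlap.

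The replicate numbers were not taken to pair the mice. Deviations of libraries with the same number correlated at 0.039, 0.134 and 0.144 over genes, so not all exceeded 0.1, and while each control library correlated best with its own number, Ptf1a cKO replicate 1 correlated best with control replicate 2 (0.083). With the replicate block 0 islet genes, 7 other endocrine genes and 3525 of all genes were called. The median SD of the ratios was then 0.620, where that of the levels was 0.876.

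Counting error could not be given for any value, which matters most for Ppy in Ptf1a cKO replicate 2.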
